A study of Mus musculus with 12 samples.

Results

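Polyamine synthesis and its control by antizyme were followed through 8 genes with ribosome profiling in ESCs (embryonic stem cells of the mouse) and in EpiLCs (epiblast-like cells). The genes were Odc1, Amd1, Srm, Sms, Oaz1, Oaz2, Azin1 and Sat1, taken by symbol from a table of 22462 genes, and all 8 were found. ESCs, which stand for the naive pluripotent state, were kept in serum with LIF and the inhibitors PD0325901 and CHIR99021 (2i). EpiLCs, a later pluripotent state, were the same cells collected about 56 hours after LIF and 2i were taken away, and no gene deletion or other agent is labelled in either group. The study names an ESC line with mCherry and GFP reporters of microRNA genes for this differentiation, while the labels name no line. Each cell type gave 3 libraries of ribosome protected fragments (RPF), the mRNA pieces covered by ribosomes, and 3 libraries of total RNA, 12 in all. The study speaks of biological replicates and of matched total RNA, while no label says which libraries came from separate cultures, so p-values measure the spread between these libraries.

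Polyamines are small positively charged molecules that bind RNA and DNA and that growing cells make in quantity. Ornithine decarboxylase (Odc1) makes putrescine, S-adenosylmethionine decarboxylase (Amd1) makes the donor of aminopropyl groups, and spermidine synthase (Srm) and spermine synthase (Sms) add these groups in turn. Antizymes (Oaz1, Oaz2) bind ornithine decarboxylase and send it to the proteasome, and their own mRNAs are read to the end only when ribosomes slip past an early stop codon, which polyamines favour. Antizyme inhibitor (Azin1) resembles ornithine decarboxylase without its activity and takes antizyme away from it, and spermidine/spermine acetyltransferase (Sat1) marks polyamines for export or breakdown. In ESCs the pathway is known for AMD1, which supports self-renewal.

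The slip sites are shown because they set the antizymes apart from nearly all other genes counted. The annotated coding sequence of both skipped 1 base, the T of a TGA codon, at chr10:80828295 for Oaz1 and at chr9:65686272 for Oaz2 (mm10, plus strand), inside a coding exon. A gap of 1 base occurred in 23 genes of the table and fell on a stop codon in 4 of them. In the 25 bases around it, with the stop codon in capitals, Oaz1 and Oaz2 had 23 bases in common and 2 that differed.
Oaz1: cggtggtgctccTGAtgtccctcac
Oaz2: ctgtggtgctccTGAtgcccctcac

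How many reads the members could collect depended on copies of them elsewhere in the genome, since only reads with a single position were counted. The counted coding sequence of each gene's main annotated transcript was cut into 28-base stretches, about the length of an RPF. These were looked up in the transcripts of all other genes, processed pseudogenes included. The same was done with 50-base stretches, the longest a total RNA read could be. Stretches across a 1-base gap such as the slip site, stretches running past the coding end and coding sequence of other transcripts were not searched. Reads from these could be counted as well. For Oaz1, 95.2% of 28-base stretches (557 of 585) were also in the pseudogene Oaz1-ps on chromosome 17. The 28 searched stretches left to Oaz1 all covered 1 base, at chr10:80826884 in its coding exon. This is the difference that the lines below show in capitals. Counted from the left end of the 29 bases shown it is G15C, with the base of Oaz1 first and that of Oaz1-ps at chr17:17346016 second.
Oaz1: tagtcagcacagccGcggcggctgcagca
Oaz1-ps: tagtcagcacagccCcggcggctgcagca

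The members differed widely in this respect. Every searched 28-base stretch of Amd1 and of Sms had a match in another gene, Amd2 or a pseudogene for Amd1 and Sms-ps for Sms. The share was 83.9% for Odc1, which shared stretches with 23 genes and most with the pseudogene Gm7993, and it was 73.7% for Oaz2 and 48.9% for Sat1. It was 21.9% for Srm and 0% for Azin1. Of 21679 genes compared in the same way, 52.8% had no shared stretch and 15.9% shared more than 50% of their stretches, as 5 of the 8 members did. With 50 bases the shares were lower, 67.0% for Odc1, 50.4% for Oaz2, 18.5% for Sat1 and 3.80% for Srm, while Oaz1 stayed at 90.8% and Amd1 and Sms at 100%. A change between cell types within an assay rests on the same stretches in both, whereas levels and RPF to total RNA ratios do not, and the values below are given with that limit.

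**Figure D1:**
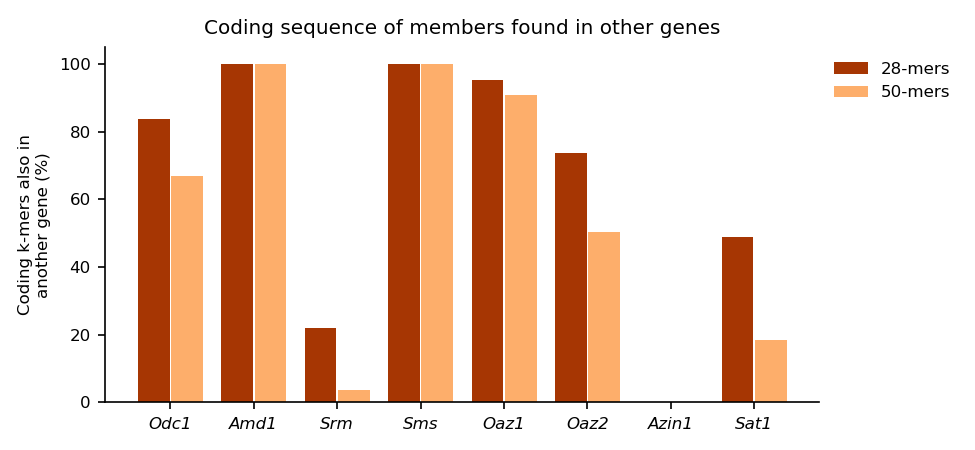
Share of the searched stretches in the counted coding sequence of each member that is also found in another gene (vertical axis, percent). Dark bars are stretches of 28 bases and light bars stretches of 50 bases. Amd1 and Sms stand at 100% for both lengths, Azin1 at 0%, and Odc1 falls from 83.9% to 67.0% with the longer stretch.

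The RPF libraries held 2681439 (EpiLC replicate 2) to 11359352 counts and the total RNA libraries 6188838 to 14655015, and EpiLC libraries were on average the shallower ones in both assays. All 5 naive markers (Zfp42, Esrrb, Klf4, Tfcp2l1, Nr0b1) fell and all 5 EpiLC markers (Dnmt3b, Otx2, Fgf5, Pou3f1, Fgf15) rose from ESC to EpiLC in both assays, as the labels would have it. Markers of fibroblasts (Col1a1, Col1a2, Thy1, Dcn) moved with the cell type too. Of these 4 genes 3 were tested and all 3 were higher in EpiLCs, their summed level being 1.97 to 2.14 CPM, a count set relative to the size of its library, in ESC total RNA and 12.6 to 14.3 CPM in EpiLC total RNA, and 6.38 to 7.16 against 34.2 to 41.1 CPM in RPF. With at most 2.14 CPM in sum, none of the 4 could reach the filter's 3 CPM in ESC total RNA. A difference was thus built into the testing of at least part of them. None of the 4 was at 0 in all libraries, and their part in the results below was not tested. Of 3 genes listed for pluripotency in both states (Pou5f1, Sox2, Nanog), 2 were called lower in EpiLCs in each assay and none higher. Their summed total RNA was 2154 to 2372 CPM in ESCs and 1082 to 1242 CPM in EpiLCs. Of 3 early mesoderm genes (T, Mixl1, Eomes) 1 was tested, and it was called lower in each assay. In such bulk samples fewer cells of a type and less RNA per cell cannot be told apart.

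Odc1, the entry step of the pathway, was higher in EpiLCs in both assays. Its total RNA stood at 281, 343 and 305 CPM in the ESC libraries and at 426, 396 and 421 CPM in the EpiLC libraries. Its RPF stood at 45.3, 35.7 and 37.0 CPM in ESCs and at 56.8, 70.4 and 70.7 CPM in EpiLCs. In both assays every EpiLC library was above every ESC library, a pattern that 37.0% of the 11750 tested genes showed in total RNA and 32.4% in RPF. The log2 fold change of EpiLC over ESC was 0.43 ± 0.068 (SE) in total RNA (voom and limma, adjusted p = 4.27e-06) and 0.73 ± 0.13 in RPF (adjusted p = 5.17e-05), or 1.35-fold and 1.66-fold. Both passed the adjusted p of 0.05 and neither reached the log2 change of 1 that a call also asked for. The change of translational efficiency (TE, RPF over total RNA) was 0.30 ± 0.15 and did not pass (adjusted p = 0.39, 95% interval -0.01 to 0.61).

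Srm, which makes spermidine, was the member with the most RPF reads and lay level between the cell types. Total RNA was 157, 154 and 166 CPM in ESCs and 164, 155 and 154 CPM in EpiLCs. RPF was 137, 151 and 158 CPM in ESCs and 145, 152 and 195 CPM in EpiLCs, with EpiLC replicate 3 above the other libraries and the ranges overlapping. The log2 fold change was -0.01 ± 0.078 in total RNA (voom and limma, adjusted p = 0.93, 95% interval -0.17 to 0.15) and 0.14 ± 0.092 in RPF (adjusted p = 0.18, interval -0.05 to 0.33). For TE it was 0.15 ± 0.12 (adjusted p = 0.62, interval -0.10 to 0.40).

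Amd1 and Sms, the decarboxylase and the synthase that complete the route to spermine, were hardly counted and went into no test. Amd1 had 12, 8 and 11 counts in the total RNA of ESCs and 10, 3 and 4 in that of EpiLCs. Its RPF counts were 5, 8 and 15 for ESCs and 5, 2 and 5 for EpiLCs. Sms had 1 to 10 counts in the 6 total RNA libraries. Its RPF count was 0 in ESC replicates 1 and 2, 1 in ESC replicate 3 and 0 in all 3 EpiLC libraries, where a count of 0 allows up to 3 counts, or 0.622, 1.141 and 0.563 CPM in replicates 1 to 3, for counting error only. Both genes had no searched 28-base stretch of their own, so these counts say little about how much of either mRNA was present or translated.

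Oaz1, the main antizyme, was not found to change. Its total RNA was 17.6, 16.2 and 16.3 CPM in ESCs and 14.8, 18.9 and 14.3 CPM in EpiLCs, and its RPF was 7.05, 9.36 and 6.24 CPM in ESCs and 10.8, 6.84 and 6.76 CPM in EpiLCs. The ranges overlapped in both assays. The log2 fold change was -0.11 ± 0.14 in total RNA (voom and limma, adjusted p = 0.48, 95% interval -0.40 to 0.17) and 0.20 ± 0.26 in RPF (adjusted p = 0.52, interval -0.34 to 0.75), and -0.08 in RPF without EpiLC RPF replicate 1. With only 18 to 68 RPF reads per library, any RPF change of Oaz1 between -0.34 and 0.75 remained compatible with the data. The searched 28-base stretches left to Oaz1 lay before its slip site. Stretches across the slip site or running past the coding end were not searched. How many of these reads came from ribosomes that slipped was thus not measured.

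Oaz2, the second antizyme, was counted still less. Its total RNA was 13.5, 15.2 and 13.1 CPM in ESCs and 16.8, 15.1 and 13.9 CPM in EpiLCs, and its RPF was 5.51, 5.32 and 2.20 CPM in ESCs and 4.98, 1.90 and 2.81 CPM in EpiLCs. Here too the ranges overlapped in both assays. The log2 fold change was 0.16 ± 0.16 in total RNA (voom and limma, adjusted p = 0.40) and -0.14 ± 0.44 in RPF (adjusted p = 0.81, 95% interval -1.04 to 0.77), from only 5 to 43 RPF reads per library. Single libraries moved the RPF value in both directions, to 0.12 without ESC RPF replicate 1, 0.02 without EpiLC RPF replicate 2, -0.54 without EpiLC RPF replicate 1 and -0.77 without ESC RPF replicate 3. It came nearer to 0, at -0.03 and -0.04, without ESC RPF replicate 2 and EpiLC RPF replicate 3. None of these passed the adjusted p.

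Azin1, the antizyme inhibitor, was the member whose assays went apart. Total RNA was 147, 152 and 143 CPM in ESCs and 160, 195 and 169 CPM in EpiLCs, so that every EpiLC library was above every ESC library. RPF was 55.2, 47.4 and 42.7 CPM in ESCs and 41.3, 30.4 and 38.5 CPM in EpiLCs, so that every EpiLC library was below every ESC library, as in 30.7% of tested genes. This pairing of higher total RNA with lower RPF, without overlap in either, was shown by 43 of the 11750 tested genes (0.366%), against 3263 that were higher in both and 2963 that were lower in both.

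**Figure D2:**
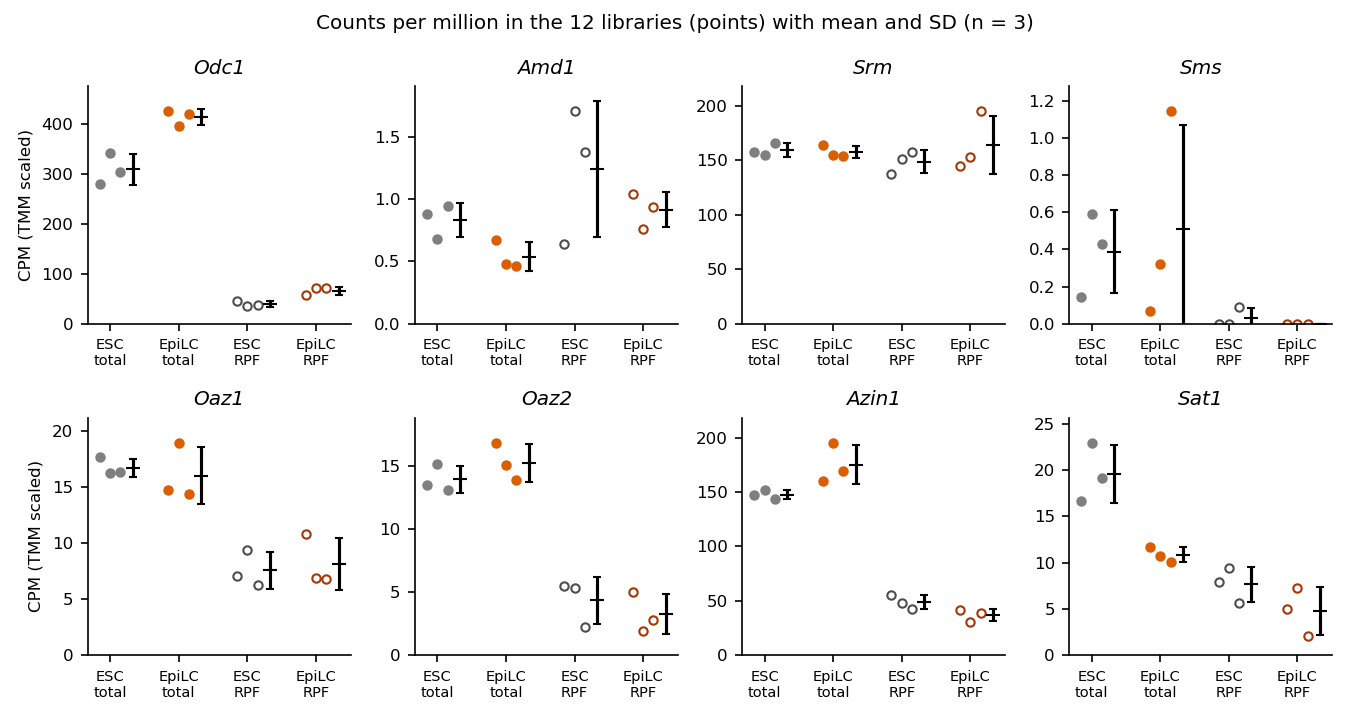
CPM of the 8 members (vertical axes, linear from 0, each panel with its own scale) in ESC and EpiLC total RNA (filled points) and RPF (open points), with the mean and SD of 3 libraries beside them. In the Azin1 panel total RNA goes from 143 to 152 CPM in ESCs up to 160 to 195 CPM in EpiLCs while RPF goes from 42.7 to 55.2 CPM down to 30.4 to 41.3 CPM, and in the Odc1 panel both assays are higher in EpiLCs.

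For Azin1 the log2 fold change was 0.23 ± 0.076 in total RNA (voom and limma, adjusted p = 0.0111) and -0.35 ± 0.14 in RPF (adjusted p = 0.0409), both past the adjusted p and within the 2-fold limit. TE was lower in EpiLCs by a log2 value of -0.57 ± 0.16 (95% interval -0.91 to -0.24), and only 5.03% of tested genes had a lower value, but its adjusted p of 0.0788 did not pass. Single libraries and settings decided on which side of the limit these values lay. Of 13 other settings of the fit, total RNA passed in 11, RPF in 9 and TE in 3. The adjusted p of the RPF change was 0.0985 without ESC RPF replicate 1 and 0.0894 without EpiLC RPF replicate 2, that of total RNA was 0.0562 without EpiLC total RNA replicate 2, and that of TE was 0.0315 without ESC RPF replicate 3. With edgeR and DESeq2 the TE change was -0.61 (adjusted p = 0.0482) and -0.60 (adjusted p = 0.0146). In voom and limma it was -0.58 (adjusted p = 0.0436) with the replicate number as a block, and it did not pass when same-numbered RPF and total RNA libraries of a cell type were joined as 1 culture (adjusted p = 0.0612). The counted sequence of Azin1 has a GC content of 39.9%, lower than in all but 1.83% of tested genes (median 52.9%), and with a GC trend taken out of each library its RPF change was -0.08 (adjusted p = 0.54) and its TE change -0.36 (adjusted p = 0.19). The RPF difference was thus not present under that correction, and the share of GC content in it was not tested further.

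Sat1, the acetyltransferase, was lower in EpiLC total RNA. It stood at 16.7, 22.9 and 19.1 CPM in ESCs and at 11.7, 10.7 and 10.1 CPM in EpiLCs, with no overlap, which 33.3% of tested genes showed in this direction. The log2 fold change was -0.81 ± 0.17 (voom and limma, adjusted p = 2.37e-04), short of the 2-fold limit. RPF was 7.95, 9.36 and 5.60 CPM in ESCs and 4.98, 7.23 and 2.06 CPM in EpiLCs, with overlapping ranges and a log2 fold change of -0.85 ± 0.38 (adjusted p = 0.0549). That value rested on EpiLC RPF replicate 3, without which it was -0.30 (adjusted p = 0.51). It was -1.16 without ESC RPF replicate 3, -1.11 without EpiLC RPF replicate 1 and -1.15 without EpiLC RPF replicate 2, each of which would have been a call. Of 13 other settings 6 put the adjusted p below 0.05. It also fell to 0.0481 and 0.0440 when ESC total RNA replicate 1 or 2 was left out. TE was at -0.04 ± 0.42 (adjusted p = 0.98, 95% interval -0.90 to 0.82), an interval too wide to show much.

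Counted together, none of the 6 tested members was called at both limits for total RNA, RPF or TE by voom and limma, where 24.3%, 26% and 0.255% of all tested genes were. Neither edgeR nor DESeq2 called one. The log2 changes of the members ran from -0.85 to 0.73 with voom and limma, from -0.84 to 0.73 with edgeR and from -0.89 to 0.71 with DESeq2, all within the fold limit whatever their p. With the adjusted p alone, 3 members passed in total RNA (Odc1 and Azin1 higher, Sat1 lower) against 65.4% of all genes (34.6% higher and 30.7% lower), and 2 passed in RPF (Odc1 higher, Azin1 lower) against 59.8% (31.1% higher and 28.7% lower). For TE none passed, against 1.2% of all genes, and 1 of the 6 (Azin1) had an unadjusted p below 0.05, against 13.9% of all genes. With edgeR and with DESeq2, 1 member passed for TE with the adjusted p alone, again Azin1, against 1.21% and 2.43% of all genes. The median log2 fold change of the 6 was 0.07 in total RNA, 0.00 in RPF and 0.05 in TE, and over all genes it was 0.03, 0.01 and 0.01.

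**Figure D3:**
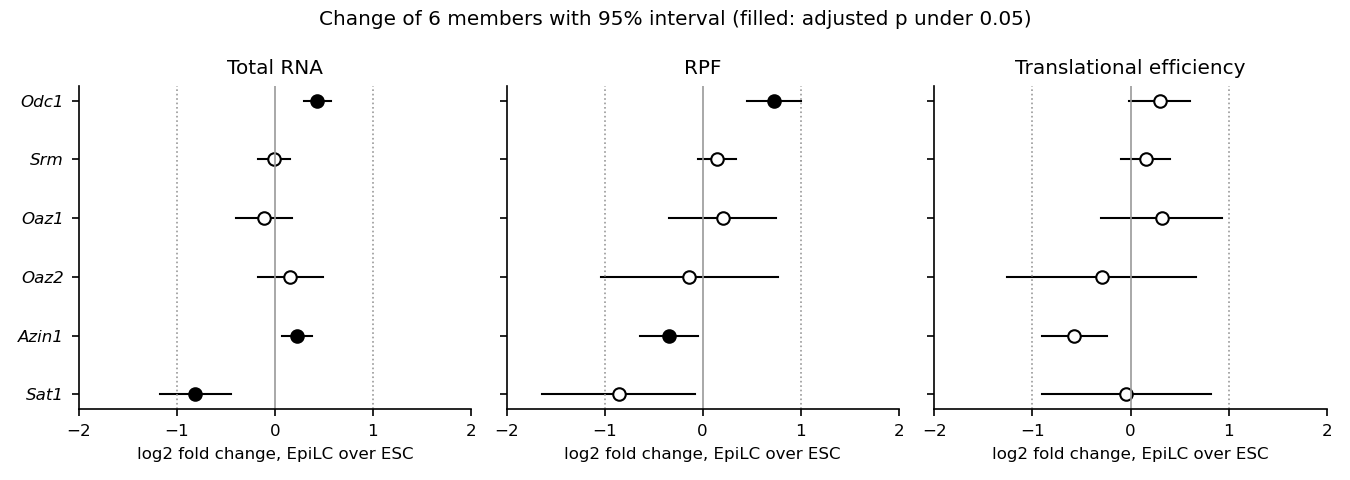
Log2 fold change of EpiLC over ESC (horizontal axes) of the 6 tested members in total RNA, RPF and TE, with 95% intervals from voom and limma. Filled points passed an adjusted p of 0.05, dotted lines mark the 2-fold limit, and Azin1 lies at 0.23 in total RNA, -0.35 in RPF and -0.57 in TE.

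The design also allowed comparing members with each other within a library, as counts per kb of counted sequence. In RPF, Azin1 over Odc1 was 1.26, 1.37 and 1.19 in the ESC libraries and 0.748, 0.445 and 0.560 in the EpiLC libraries. Every EpiLC library was below every ESC library, a difference of -1.15 in the mean log2 ratio (2-sided exact permutation test, 3 against 3, p = 0.1, the smallest that this design allows, 0.3 after adjustment over 3 ratios). Where the ratio lies against 1 cannot be read, since shared stretches left Odc1 fewer countable positions than Azin1. The ratio carries no GC correction, under which the RPF change of Azin1 was -0.08. In total RNA the same ratio differed by only -0.18 on the log2 scale (exact permutation p = 0.3).

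Set against the antizymes, Oaz1 and Oaz2 summed, the RPF of Odc1 was 1.62, 1.11 and 2.02 in ESCs and 1.65, 3.73 and 3.39 in EpiLCs. EpiLC replicate 1 lay within the ESC range, and the difference in the mean log2 ratio was 0.84 (2-sided exact permutation p = 0.2, adjusted 0.3). The RPF of Azin1 over the antizymes was 2.04, 1.51 and 2.40 in ESCs and 1.23, 1.66 and 1.90 in EpiLCs, with a difference of -0.31 (exact permutation p = 0.4, adjusted 0.4). The ranges of the cell types overlapped for both ratios and neither difference passed the test, though that of Odc1 was larger than the SD of the log2 ratio in either cell type (0.44 in ESCs and 0.64 in EpiLCs). The levels themselves shift with the stretches each gene shares with its copies, and only their change between cell types can be read. For Oaz1 the searched 28-base stretches left all covered chr10:80826884, before the slip site at chr10:80828295. Stretches across the slip site were not searched, so how far its part in these ratios reflects full-length antizyme is not known. A ratio of Srm to Sms could not be formed since Sms had RPF counts of 0.

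As counted, most tested members had TE levels below those of most genes. These levels are not corrected for stretches shared with other genes, which for most of these members were more frequent at 28 than at 50 bases. Here a gene was called where RPF and total RNA within a cell type differed by a log2 value over 1 at an adjusted p below 0.05. In ESCs 5 of the 6 tested members were called lower, where 13.5% of all genes were, and in EpiLCs 4 of the 6, where 14.4% were. Over 25 other settings and fits without 1 library the count ran from 4 to 6 in ESCs, the 6 including the barely counted Sms where no filter was used, and from 3 to 5 in EpiLCs. The median log2 TE of the 6 was -1.54 in ESCs and -1.85 in EpiLCs, and over all genes it was -0.02 and -0.01.

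As counted, Odc1 had the lowest TE of the tested members, at -2.97 ± 0.11 in ESCs (voom and limma, adjusted p = 1.78e-17) and -2.67 ± 0.11 in EpiLCs (adjusted p = 3.32e-16), or 7.82-fold and 6.37-fold fewer RPF than total RNA reads after scaling. Only 0.511% and 0.834% of tested genes had a lower value. These values and ranks are not corrected for the stretches that Odc1 shares with other genes. Azin1 stood at -1.62 ± 0.099 in ESCs (adjusted p = 2.94e-13) and -2.19 ± 0.13 in EpiLCs (adjusted p = 2.39e-13), with 5.09% and 2.11% of genes below it. With a GC trend taken out of each library the Azin1 values were -1.02 and -1.38, still calls. Azin1 had no searched stretch in common with another annotated transcript, and copies outside the annotation were not searched.

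The antizymes and Sat1 were lower as well. Oaz2 was at -1.93 ± 0.27 in ESCs and -2.23 ± 0.38 in EpiLCs, and Sat1 at -1.46 ± 0.21 and -1.50 ± 0.36, where without EpiLC RPF replicate 3 the EpiLC value of Sat1 was -0.89 and no longer a call. Oaz1 was at -1.24 ± 0.19 in ESCs and at -0.92 ± 0.23 in EpiLCs, the latter past the adjusted p (0.00134, voom and limma) and short of the 2-fold limit, though a call at -1.15 without EpiLC RPF replicate 1. Srm alone lay near the centre of all genes, at -0.10 ± 0.081 in ESCs (adjusted p = 0.29) and 0.06 ± 0.090 in EpiLCs (adjusted p = 0.59).

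**Figure D4:**
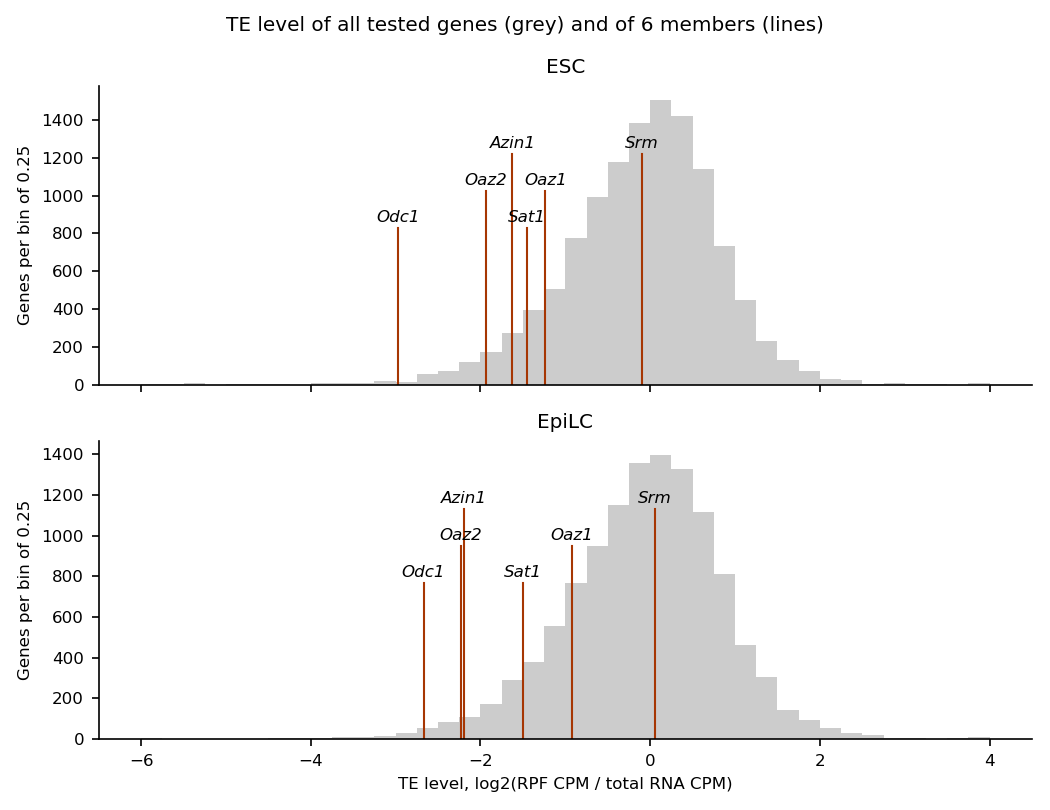
Number of tested genes (vertical axis, bins of 0.25) by TE level, the log2 ratio of RPF to total RNA CPM (horizontal axis), in ESCs (top) and EpiLCs (bottom), with 6 members as lines. Srm lies near the middle at -0.10 and 0.06, and Odc1 is the leftmost member at -2.97 and -2.67.

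For all members with copies but Amd1 and Sms, a smaller share of 50-base than of 28-base stretches had a match elsewhere, and the part of this in the low TE levels was not tested. When RPF counts were set against the unshared 28-base stretches and total RNA counts against the unshared 50-base stretches, a calculation chosen after seeing the data that takes all total RNA reads to be of full length, Odc1 moved to -1.94 in ESCs and -1.64 in EpiLCs. The other genes of the table were not recalculated, so these values have no rank among them, and they are a rough bound. Oaz2 moved to -1.02 and -1.31, Sat1 to -0.78 and -0.83 and Oaz1 to -0.29 and 0.03. Stretches that were not searched have no part in these values. Azin1 kept its values and, at -2.19, was then the lowest of the 6 in EpiLCs, while Odc1 stayed the lowest in ESCs. Among the 6 members Odc1 and Oaz1 thus moved most, and Oaz1 and Sat1 no longer lay beyond the 2-fold limit in ESCs.

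The order of the members by level changed in the same way. Per kb of counted sequence, ESC total RNA ran from Odc1 at 231 ± 23.4 CPM per kb (SD, n = 3) through Srm at 184 ± 7.14 and Azin1 at 113 ± 3.17 to Sat1 at 39.8 ± 6.39, Oaz1 at 26.1 ± 1.27 and Oaz2 at 24.6 ± 1.94, and Oaz1 and Oaz2 did not differ beyond their spread. In EpiLCs Odc1 was at 309 ± 11.98, Srm at 182 ± 6.78 and Azin1 at 134 ± 13.8 CPM per kb, followed by Oaz2 at 27.0 ± 2.64, Oaz1 at 25.03 ± 3.96 and Sat1 at 22.0 ± 1.64. Oaz1 overlapped both of its neighbours there, while Oaz2 lay above Sat1 without overlap. Per 1000 unshared 50-base stretches, Oaz1 came next to Odc1 in ESCs at 334 ± 16.3 CPM, above Srm at 203 ± 7.86 and Azin1 at 118 ± 3.30, while Odc1 was at 727 ± 73.7. In RPF per kb Srm led with 172 ± 12.2 CPM per kb in ESCs and 190 ± 31.2 in EpiLCs, and Azin1 and Odc1 changed places, from 37.2 ± 4.88 and 29.3 ± 3.86 in ESCs to 28.2 ± 4.32 and 49.2 ± 5.91 in EpiLCs. Per 1000 unshared 28-base stretches neither held. Oaz1, on its 28 searched stretches, was at 269.6 ± 57.8 CPM in ESC RPF and 290.3 ± 82.2 in EpiLC RPF. These values overlapped Srm at 227 ± 16.1 and 251 ± 41.2. Odc1 was above Azin1 in both cell types, at 185 ± 24.4 against 38 ± 4.98 in ESCs and 311 ± 37.4 against 28.8 ± 4.42 in EpiLCs. Stretches that were not searched are missing from these denominators. With so few stretches left, Oaz1 could lie well below these values in both assays, and its place against Srm is not settled.

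Upstream start codons, where ribosomes can begin before the coding sequence, were counted in the main annotated transcript of each gene. Azin1 had 3 and Odc1 2 of them, and Sms had 4, Sat1 2 and Amd1 1. Srm, Oaz1 and Oaz2 had none. Of 19673 genes with a 5′ UTR 50.5% had at least 1, 17.9% had at least the 3 of Azin1 and 28.4% at least the 2 of Odc1. The reading frame opened by the last upstream ATG of Azin1 was 30 nt long and ended 1 nt before its main start codon, and that of Amd1 was 21 nt long. The 2 members with the lowest TE after the reading by unshared stretches, Odc1 and Azin1, thus had several. Sat1, with as many as Odc1, stood at only -0.78 in ESCs and -0.83 in EpiLCs by that reading, and Oaz2 was lower than Sat1 without any. No relation was tested over so few genes.

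Around the members, 40 further genes of polyamine relatives, catabolism, transport, hypusination, methionine salvage and arginine supply were listed, and 26 passed the filter on low counts. In total RNA 1 was called higher and 3 lower, and in RPF the same numbers held, a share below the 24.3% and 26% of all genes. These were the same 4 genes in both assays. Gatm, which makes the creatine precursor from arginine, had 8 to 17 counts per ESC total RNA library and 85 to 211 per EpiLC library, and 1 to 13 against 44 to 98 in RPF. It passed the filter on low counts only through its EpiLC libraries, so a difference was built into its being tested, and its fitted log2 values of 3.74 ± 0.38 in total RNA and 4.45 ± 0.50 in RPF depend on the count added for logs. Slc7a1, the arginine and ornithine carrier, fell by 1.87 ± 0.097 in total RNA and by 1.94 ± 0.10 in RPF, from 153 ± 7.20 to 41.2 ± 5.49 CPM in total RNA (SD, n = 3). The vesicular polyamine transporter Slc18b1 fell by 1.95 ± 0.30 and 2.11 ± 0.58, on only 1 to 9 RPF reads per EpiLC library. It likewise passed the filter through ESC libraries, with 1 of the 6 EpiLC libraries above 3 CPM. Apip of the methionine salvage pathway fell by 1.22 ± 0.14 and 1.53 ± 0.18. For TE none of the 26 was called. The nearest was Mtap, which clears the by-product of spermidine and spermine synthesis, at -0.44 ± 0.12 (adjusted p = 0.0573).

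By role, arginine and ornithine supply had 4 of 8 genes tested, with Gatm called higher and Slc7a1 lower. Of the 11 transport genes 6 were tested, and Slc18b1 was called. Methionine salvage had 8 of 9 tested, with Apip called lower. None of the 4 genes of hypusination, the step that turns spermidine into a modified lysine of eIF5A, was called, nor any of the 3 tested of 5 for catabolism and the 1 tested of 3 for relatives (Azin2). With the adjusted p alone, 5 of the 26 were higher and 11 lower in total RNA, where 34.6% and 30.7% of all genes were. In RPF 5 were higher and 10 lower, where 31.1% and 28.7% of all genes were. Among the higher ones was Dhps, the enzyme of the entry step of hypusination, at 0.58 ± 0.087 in total RNA (adjusted p = 2.03e-06, voom and limma) and 0.52 ± 0.11 in RPF. Atp13a3, a polyamine-carrying ATPase, had the lowest TE of the wider list, at -2.22 ± 0.073 in ESCs and -2.30 ± 0.086 in EpiLCs, with 1.78% and 1.68% of genes below it and no shared stretch.

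**Figure D5:**
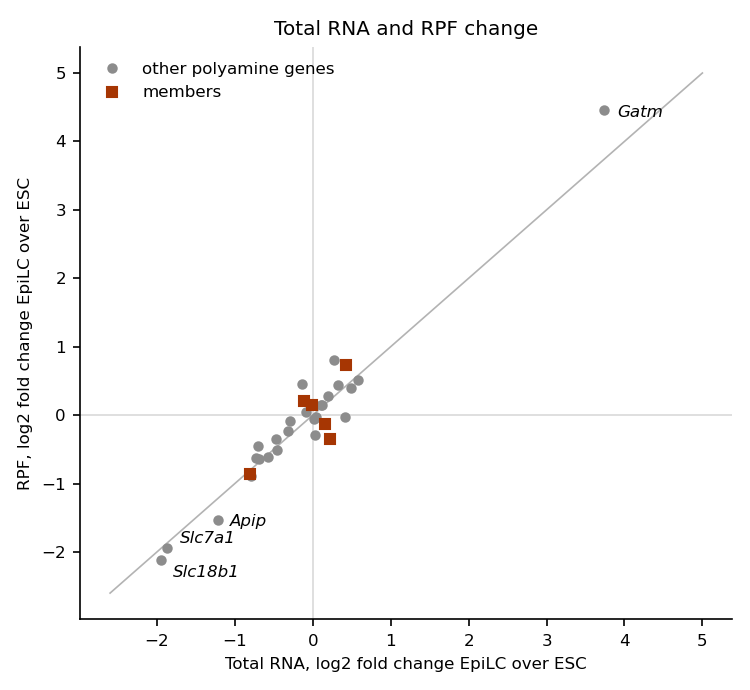
Log2 fold change of EpiLC over ESC in RPF (vertical axis) against total RNA (horizontal axis) for 6 members (squares) and 26 other polyamine genes (circles), with the line of equal change in grey. Gatm lies at 3.74 and 4.45, Slc7a1, Slc18b1 and Apip lie below -1 on both axes, and the members lie within 1 of 0.

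The genes most like Odc1 in log2 CPM over the 12 libraries were Rbm15b (Pearson's r = 0.996), Igsf9b (0.995) and Usp12 (0.994), out of 11749 genes compared. Those most like Oaz1 were Psma3 (0.979), Rasal2 (0.976) and Elk1 (0.974). The points share libraries of just 4 groups, and RPF and total RNA libraries lie apart for both genes. These values are a description and carry no test.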

How the data were processed

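The authors deposited raw counts per gene for 12 libraries made with a ribosome profiling kit. Per the labels and the study's methods, adapters were removed with cutadapt version 1.14, reads with a single position were kept with STAR version 2.5.3a on mm10 with Gencode M14, and 5′ ends of reads in coding sequence without its first 45 nt were assigned to genes by featureCounts (version 1.5.3). The table also gives the counted length, and no column was left without a sample. Groups and replicate numbers came from the sample titles. Symbols were matched for 22385 genes and not for 77.

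Genes with at least 3 CPM in at least 3 libraries were tested (11750). TMM factors from edgeR version 4.0.16 and voom with limma version 3.58.1 (R version 4.3.3) gave 1 model of 4 groups over all libraries, with contrasts for total RNA, RPF, TE change (interaction) and TE level. The study's methods name limma, the interaction and the filter, whereas voom and TMM were chosen here. Adjustment followed Benjamini and Hochberg over every tested gene, and a call needed an adjusted p below 0.05 and an absolute log2 fold change above 1. Voom adds 0.5 to each count. CPM in the text are scaled by TMM. Ratios between members were compared with exact permutation tests in scipy version 1.17.1. DESeq2 version 1.42.0 and edgeR's quasi-likelihood test served as alternatives, beside other scalings, filters, blocks, a GC correction and leaving out each library. Shared stretches, upstream start codons and GC content came from Gencode M21 on the same assembly, a later release than that of the counts. The fit was tested on simulated data.

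Same-group libraries differed by more than sampling noise (chi-square per degree of freedom 2.46 to 7.19). How PCR duplicates were treated is not given in the sources used here, so the floor of 3 counts covers counting error only. All members were named, as were other polyamine genes called in total RNA, RPF or TE (up to 3 per role) and the 3 genes most like Odc1 and Oaz1. Dhps, Mtap, Atp13a3 and Azin2 fall outside that rule and were chosen after their values were seen. The members and lists were chosen with earlier results of these data known.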

Additional observations from a re-analysis of the deposited data

How the results depend on the processing

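Scaling (RLE, upper quartile, total counts), filters, tests (edgeR, DESeq2, limma-trend), library weights, blocks and a GC correction left the number of called members at 0 for total RNA, RPF and TE. Without the fold limit it was 3 for total RNA and 2 for RPF. Leaving out 1 library gave 0 to 1 called members for RPF. Per unshared stretch, added after seeing the data, 3 members lay beyond the 2-fold limit for TE level in ESCs, Oaz2 only just at -1.02. Their adjusted p was that of the uncorrected values, and none was computed for the shifted values. No share of all genes can be set beside this count, since the other genes were not recalculated. Over the settings and fits without 1 library, called members ran from 4 to 6 for TE level in ESCs and from 3 to 5 in EpiLCs. The Azin1 to antizyme difference turned to 0.21 in total RNA counts and the cause was not tested. Values near 0 changed sign. With the GC correction, Srm was at 0.013 in total RNA, with the block added too, and its EpiLC TE level was -0.13 in both, and the TE change of Sat1 was 0.078 and, with the replicate block added, 0.13. That of Sat1 was also 0.040 with at least 10 counts in every library, 0.077 with edgeR, 0.10 with DESeq2, 0.023 with limma-trend and 0.11 with library weights. With 1 library left out it ran from -0.31 to 0.54, total RNA of Srm from -0.046 to 0.020, its RPF from -0.038 to 0.21, its EpiLC TE level from -0.069 to 0.18, RPF of Oaz1 from -0.081 to 0.36 and RPF of Oaz2 from -0.77 to 0.12. For the ratios, leaving out 1 RPF library kept every direction.

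No label says that a replicate number marks a shared culture, although the study speaks of matched total RNA. Same-numbered libraries of different groups correlated in their deviations from the group means by only -0.174 to 0.122. With the replicate block no member was called for total RNA, RPF or TE. With the adjusted p alone this block added Azin1 for TE (-0.58, adjusted p = 0.0436, voom and limma) and Sat1 for RPF (-0.80, adjusted p = 0.0336). For the ratios, pairing by replicate number cannot change the mean differences. They stay at 0.84 (Odc1 to antizyme), -0.31 (Azin1 to antizyme) and -1.15 (Azin1 to Odc1) by arithmetic and say nothing about pairing. With same-numbered RPF and total RNA libraries of a cell type joined as 1 culture (estimated correlation 0.0706), the members passing the adjusted p numbered 3, 2 and 0 for total RNA, RPF and TE, as without it. Depth limits all members with few RPF reads per library, 5 to 68 for Oaz1, Oaz2 and Sat1, 2 to 15 for Amd1 and 0 to 1 for Sms.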
